A study of Homo sapiens with 6 samples.

Results

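The centrosomal protein (CEP) genes described here are the 34 genes whose only platform symbol is CEP followed by a number and at most 1 further letter, out of 19775 genes named alone on the array. Each gene is represented by its brightest probe set, the one with the highest mean over all 6 arrays, so the levels themselves chose the probe sets and are given as description. CEP83 had no probe set named for it alone, and the 3 probe sets of CEP170 also name the pseudogene CEP170P1. The cells were L428, an established line of Hodgkin lymphoma, transfected by nucleofection with an LNA, or locked nucleic acid, directed against the microRNA miR-9 (3 samples) or with a scrambled LNA (3 samples), and total RNA was taken 9 h later for Affymetrix HG-U133 Plus 2.0 arrays. Such an inhibitor is a chemically modified antisense strand that binds a microRNA and keeps it from its targets. Both groups went through nucleofection, and no untransfected cells were analysed here. All samples come from 1 cell line, and the labels do not say whether the numbered replicates were separate cultures, so p-values measure only the spread between these samples.

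The centrosome is the main site from which animal cells organize microtubules. It holds a pair of centrioles in a cloud of pericentriolar material, and a new centriole forms beside each old one once per cell cycle. The older, mother centriole carries appendages with which it can dock at the membrane and template a primary cilium. Cells of the blood lineages divide with centrosomes and rarely carry cilia, and Reed-Sternberg cells of Hodgkin lymphoma are known for their many nuclei and failed cell division.

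The agent under study acts on the following mature microRNA, which RefSeq (GRCh38.p14) places at 3 loci, and the labels do not say which strand of the hairpin the inhibitor covers. Both strands are shown with the seed, bases 2 to 8, in capitals, because seed pairing is how a microRNA finds the mRNAs that an inhibitor would release.
hsa-miR-9-5p: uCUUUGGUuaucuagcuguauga
hsa-miR-9-3p: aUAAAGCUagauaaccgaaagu
The untranslated regions of the CEP mRNAs, where such seeds pair, were not used here.

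Values are log2 expression as deposited, and each difference is inhibitor minus scrambled control, with its limma standard error and n = 3 arrays per group. Array medians spanned 7.10 to 7.15. Scrambled replicate 1 stood apart from the rest, with a 90th percentile of 9.28 where the other scrambled arrays had 9.45 and 9.47 and the miR-9 LNA arrays 9.53 to 9.57. Its added bacterial dap RNA also read highest, at 10.45 against 8.62 to 9.40 elsewhere. Control probe sets at the 3′ end minus those at the 5′ end of ACTB differed most on miR-9 LNA replicate 1, by 0.87 against 0.22 to 0.58 elsewhere. For GAPDH scrambled replicate 1 differed most, by 0.19 against -0.05 to 0.06. All 9 markers of Reed-Sternberg cells lay above the level filter, among them the CD30 gene TNFRSF8, at 10.35 to 10.73 over the 6 arrays. Of 5 markers of normal B cells 3 passed the filter, and the B cell surface gene MS4A1 lay at 6.63 to 6.81, near the bottom of the scale. None of 5 T and NK cell markers passed, against 1 of 4 myeloid, 1 of 3 epithelial and 3 of 3 fibroblast markers. The summed level of the fibroblast markers, as a mean over its genes, ranged from 7.43 to 7.51 with the miR-9 LNA and from 7.50 to 7.58 with the scrambled LNA. Its genes COL1A1 and COL1A2 lay at 7.99 to 8.23 and at 7.05 to 7.24, and the part of such cells in the CEP values was not tested. In RNA from bulk cells, a shift in how many cells express a gene and a shift in RNA per cell cannot be told apart.

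Most CEP genes lay slightly higher when miR-9 was inhibited, as did 70.0% of all tested genes. CEP152, CEP135, CEP57, CEP44, CEP76 and CEP63, from the group of genes for centriole assembly and its control, gave 6 of the 7 smallest p-values, with differences of 0.25 to 0.30 on the log2 scale, or 1.19 to 1.23 fold. No CEP gene passed the threshold of an adjusted p under 0.05, and no probe set on the array did. After quantile normalization, which puts all arrays on the same distribution, the differences of 27 of 31 members were above 0, with a median of 0.08. Of all tested genes 49.6% were then above 0, with a median of -0.0008.

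Of the 34 members, 31 had a mean level at or above 7.11, the median of all probe sets, and were tested. With limma, 0 of 31 passed an adjusted p under 0.05 over 27307 probe sets, where 0% of all probe sets passed and 14.4% had an unadjusted p under 0.05. At an unadjusted p under 0.05, limma gave 13 members higher with the miR-9 LNA, against 17.4% of the 12367 tested genes. It gave 0 members lower, against 0.598% of tested genes. The difference was above 0 for 29 of 31 members and for 70.0% of all tested genes. The members' median difference was 0.17, with quartiles of 0.11 and 0.24, and that of all tested genes was 0.08. The groups did not overlap, with the miR-9 LNA side higher, for 16 members and for 22.0% of tested genes. The opposite held for 0 members and for 3.83% of tested genes. Within same-numbered pairs of arrays, 26 members had the higher value under the inhibitor in 3 of 3 pairs, as did 44.9% of all tested genes. Lowest of the 6 arrays was scrambled replicate 1 for 16 of the 31 members and for 41.5% of all tested genes. Without scrambled replicate 1, 10 members stood at a limma unadjusted p under 0.05 and higher, against 12.9% of tested genes, and 0 stood lower, against 1.16%. The medians were then 0.15 for the members and 0.06 for all tested genes, and groups did not overlap for 17 members, all higher, against 26.7% higher and 6.36% lower of tested genes. Without miR-9 LNA replicate 1 the count was 8 members, and that over all 27307 probe sets, in either direction, went from 3926 to 2408. A fit with the replicate number as a block gave 14 members higher and 0 lower, against 25.9% and 0.784% of tested genes and 22.8% of all probe sets.

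After quantile normalization limma gave 3 members at an unadjusted p under 0.05, all higher, against 1.88% higher and 2.34% lower of tested genes and 4.55% of probe sets in either direction. They were CEP135, CEP152 and CEP44. The difference was above 0 for 27 of 31 members, against 49.6% of tested genes, and the median was 0.08 for the members and -0.0008 for all tested genes. Groups did not overlap for 9 members, all higher, against 5.40% higher and 6.40% lower of tested genes. CEP350, CEP85, CEP250 and CEP170B then lay below 0.

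The group for centriole assembly and duplication holds genes that build centrioles and genes that restrain or follow that step. All 12 of its members were tested. All 12 differences were above 0, with a median of 0.23, beside 70.0% and 0.08 for all tested genes. At an unadjusted p under 0.05 limma gave 7 of 12 higher, beside 17.4% of all tested genes, and the groups did not overlap for 7 of 12, beside 22.0%. After quantile normalization the median of the 12 was 0.11, and 10 lay above 0, beside 49.6% of tested genes. Of the 12, 3 then had an unadjusted p under 0.05, beside 1.88% of tested genes higher.

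CEP152 is a scaffold that brings the kinase PLK4 to the wall of the mother centriole, where duplication begins. It read 9.46, 9.49 and 9.45 with the miR-9 LNA and 9.11, 9.17 and 9.23 with the scrambled LNA. The groups lay well apart, and the miR-9 LNA arrays were nearly level with each other. The difference was 0.30 ± 0.06, the smallest p among the members (limma unadjusted p = 0.00127, adjusted p = 0.296), and 0.15 ± 0.06 after quantile normalization.

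CEP63 binds CEP152 at the same ring. CEP63 read 8.96, 8.74 and 8.91 with the miR-9 LNA and 8.51, 8.55 and 8.72 with the scrambled LNA. Its groups came within a small step of each other without overlap, between miR-9 LNA replicate 2 and scrambled replicate 3. The difference of CEP63 was 0.28 ± 0.09 (limma adjusted p = 0.296), and 0.16 ± 0.07 after quantile normalization. CEP57, another protein of this ring, which tethers pericentriolar material, read 9.44, 9.42 and 9.26 with the miR-9 LNA and 9.07, 9.17 and 9.07 with the scrambled LNA. Every miR-9 LNA array of CEP57 was higher than every scrambled array. The difference of CEP57 was 0.27 ± 0.07 (limma adjusted p = 0.296), and 0.13 ± 0.08 after quantile normalization. CEP192, which recruits PLK4 and pericentriolar material, read 8.99, 8.94 and 8.80 against 8.66, 8.81 and 8.65. Its groups met, with scrambled replicate 2 just above miR-9 LNA replicate 3. The difference of CEP192 was 0.21 ± 0.08 (limma adjusted p = 0.316), and 0.08 ± 0.08 after quantile normalization.

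CEP135, a structural protein of the early centriole that links its central cartwheel to the microtubule wall, read 8.43, 8.45 and 8.56 with the miR-9 LNA and 8.22, 8.09 and 8.23 with the scrambled LNA. The groups of CEP135 did not overlap. Its difference, 0.30 ± 0.07 (limma unadjusted p = 0.00300, adjusted p = 0.296), was the largest among the 31 tested members, and also after quantile normalization, at 0.21 ± 0.08. CEP44, which helps a new centriole turn into a centrosome, read 8.61, 8.41 and 8.38 against 8.10, 8.28 and 8.16. Replicate 1 of CEP44 was the highest miR-9 LNA array and the lowest scrambled array. Its difference was 0.29 ± 0.08 (limma adjusted p = 0.296), and 0.20 ± 0.08 after quantile normalization. At its other tested probe set, 231850_x_at, the groups overlapped. There CEP44 differed by 0.09 ± 0.08, and by 0.03 ± 0.07 after quantile normalization. CEP76, which restrains a further round of centriole duplication, read 9.42, 9.23 and 9.27 against 8.98, 9.07 and 9.13. The groups of CEP76 did not overlap. The difference was 0.25 ± 0.08 (limma adjusted p = 0.296), and 0.10 ± 0.07 after quantile normalization.

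The other 5 genes of centriole assembly differed by less. CEP120, which supports centriole elongation, differed by 0.16 ± 0.08, and its groups did not overlap. CEP97, which caps centrioles together with CCP110, differed by 0.13 ± 0.12. CEP350, which stabilizes centrioles, differed by 0.12 ± 0.12, with scrambled replicate 1 at 9.85 and the other 5 arrays at 10.22 to 10.33. CEP295, needed for centrioles to mature into centrosomes, differed by 0.11 ± 0.10, and CEP85, which binds STIL during duplication, by 0.08 ± 0.07. None of these 5 reached an unadjusted p under 0.05.

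**Figure D1:**
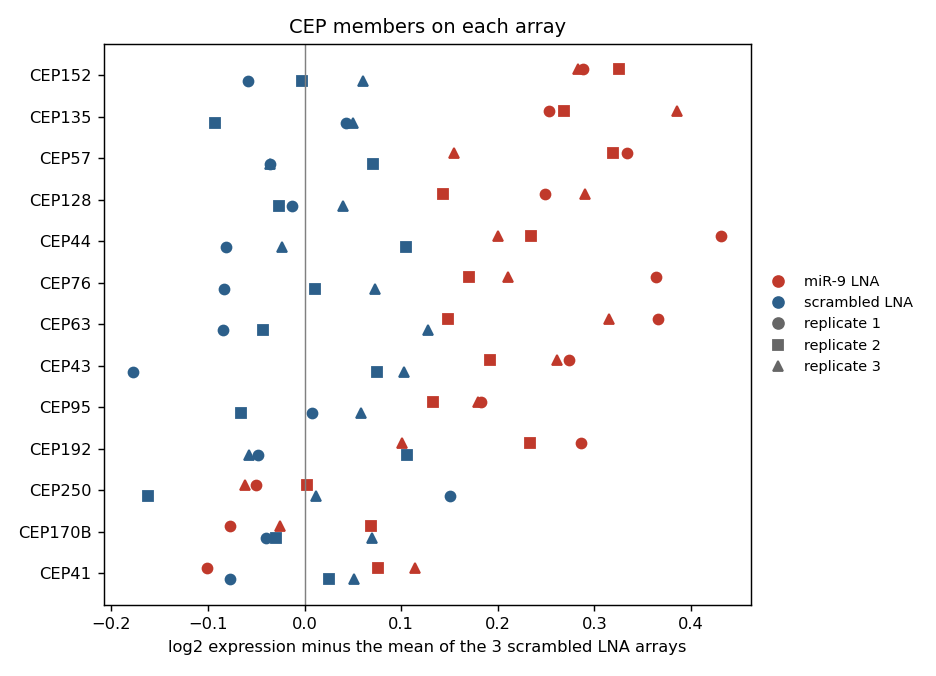
Log2 expression of 13 CEP members on each of the 6 arrays, minus the mean of the 3 scrambled LNA arrays of the same gene (x axis, log2 units); red marks are miR-9 LNA arrays, blue marks scrambled LNA arrays, and the marker shape gives the replicate number. The red marks lie right of the blue for CEP152 down to CEP95, meet them for CEP192, and overlap their range for CEP250, CEP170B and CEP41.

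Of the appendage genes CEP128 stood out by its p. CEP128, a protein of the subdistal appendages that anchor microtubules, read 8.47, 8.36 and 8.51 with the miR-9 LNA and 8.21, 8.19 and 8.26 with the scrambled LNA. The groups did not overlap. Its difference was 0.23 ± 0.06 (limma adjusted p = 0.296). The distal appendage proteins, which dock the mother centriole at the membrane, differed by 0.12 ± 0.08 for CEP164 and 0.09 ± 0.06 for CEP89. After quantile normalization CEP164 differed by 0.002 ± 0.07, CEP89 by 0.07 ± 0.06 and CEP128 by 0.14 ± 0.06.

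Centrosome cohesion had 2 members. CEP68, a part of the linker that holds the 2 centrosomes together before mitosis, differed by 0.24 ± 0.10 (limma unadjusted p = 0.0476, adjusted p = 0.343), and its groups overlapped. After quantile normalization CEP68 differed by 0.12 ± 0.12. As deposited, its other tested probe sets gave -0.02 ± 0.11, 0.02 ± 0.09 and 0.12 ± 0.09. CEP250, the linker's anchor at the centriole base, also called C-Nap1, read 7.35, 7.41 and 7.34 with the miR-9 LNA and 7.55, 7.24 and 7.42 with the scrambled LNA. The scrambled arrays of CEP250 enclosed all of its miR-9 LNA arrays. The difference of CEP250 was -0.04 ± 0.09 (limma adjusted p = 0.855), and it turned to 0.04 without scrambled replicate 1 and 0.07 with array weights. Whether the differences of CEP68 and CEP250 differ from each other was not tested.

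Among the genes of the cilium, its transition zone and the centriolar satellites, 9 of 11 were tested. All 9 differences were above 0, with a median of 0.17, beside 70.0% and 0.08 for all tested genes. At an unadjusted p under 0.05 limma gave 2 of 9 higher, beside 17.4%. After quantile normalization 9 lay above 0, beside 49.6%, with a median of 0.075, and 0 had an unadjusted p under 0.05. CEP43, also called FOP, which works with CEP350, read 9.27, 9.19 and 9.26 with the miR-9 LNA and 8.82, 9.07 and 9.10 with the scrambled LNA. Scrambled replicate 1 lay far below the other arrays, and the groups did not overlap. The difference of CEP43 was 0.24 ± 0.09 (limma adjusted p = 0.307). It was 0.15 without scrambled replicate 1 and 0.10 ± 0.06 after quantile normalization. CEP20, a relative of CEP43, differed by 0.23 ± 0.09 (limma unadjusted p = 0.0373, adjusted p = 0.328), and 0.04 ± 0.07 after quantile normalization.

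The remaining genes of this group missed an unadjusted p under 0.05 without the replicate block. With the block, limma's unadjusted p was 0.0225 for CEP19 and 0.0455 for CEP290, and CEP20 went to 0.0568 (adjusted p = 0.170, 0.211 and 0.232). CEP19, a partner of the small GTPase RABL2 at the ciliary base, differed by 0.24 ± 0.11 and CEP78, whose loss disturbs cilia of the eye and ear, by 0.19 ± 0.10. CEP290, the gatekeeper of the transition zone, differed by 0.17 ± 0.08, but at its other tested probe set, 221683_s_at, by -0.20 ± 0.12. CEP162, which places the transition zone on the centriole, differed by 0.13 ± 0.06, and the satellite gene CEP72 by 0.09 ± 0.05. The groups did not overlap for CEP162 and CEP72, and overlapped for CEP19, CEP78 and CEP290. CEP131, another satellite gene, differed by 0.05 ± 0.07. CEP41, needed for tubulin glutamylation in cilia, read 7.35, 7.53 and 7.57 with the miR-9 LNA and 7.37, 7.48 and 7.50 with the scrambled LNA. Replicate 1 was the lowest array of CEP41 in both groups. Its difference was 0.03 ± 0.08 (limma adjusted p = 0.871), and -0.01 without miR-9 LNA replicate 3.

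CEP55 acts at the midbody, where it brings in the machinery that cuts the bridge between daughter cells. It read 11.19, 11.38 and 11.24 with the miR-9 LNA and 10.99, 11.13 and 11.10 with the scrambled LNA. The groups of CEP55 did not overlap. The difference of CEP55 was 0.20 ± 0.07 (limma unadjusted p = 0.0308, adjusted p = 0.318), and 0.007 ± 0.08 after quantile normalization. CEP70, which helps to organize microtubules, differed by 0.11 ± 0.07 before and by 0.11 ± 0.07 after quantile normalization.

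Less is known of the last group. CEP95 read 8.84, 8.79 and 8.84 with the miR-9 LNA and 8.67, 8.59 and 8.72 with the scrambled LNA. The groups of CEP95 did not overlap. Its difference was 0.17 ± 0.06 (limma adjusted p = 0.315), and 0.05 ± 0.07 after quantile normalization. CEP85L, a relative of CEP85 known from migrating neurons, differed by 0.22 ± 0.11. CEP170B, a relative of the appendage protein CEP170, read 7.81, 7.95 and 7.86 against 7.84, 7.85 and 7.95. The groups of CEP170B overlapped fully. The difference was -0.01 ± 0.07 (limma adjusted p = 0.945), and turned to 0.02 with arrays centred on their medians.

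**Figure D2:**
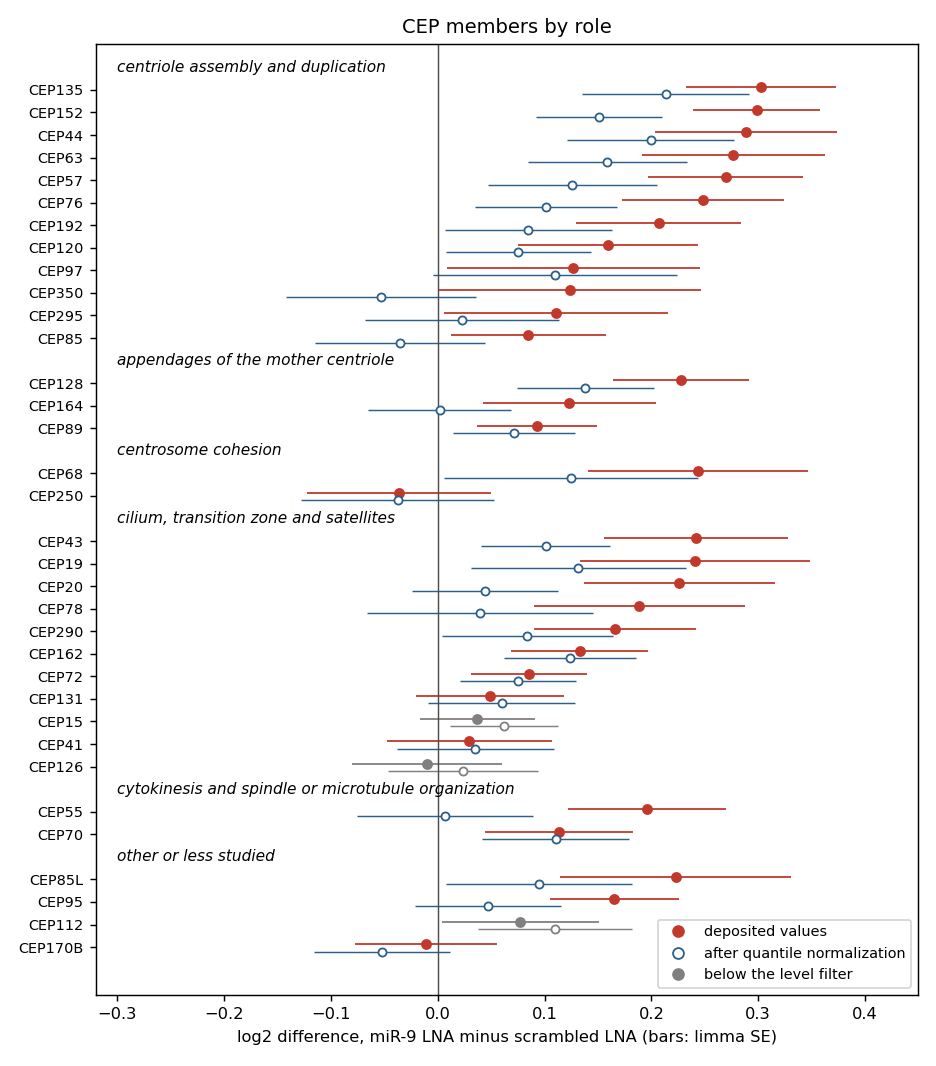
Log2 difference of each of the 34 CEP members, miR-9 LNA minus scrambled LNA (x axis), grouped by role; filled points are deposited values, open points are values after quantile normalization, bars are limma standard errors, and grey points lie below the level filter. Of the 31 tested members 29 lie above 0 as deposited and 27 once quantile normalized, most of them closer to 0.

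The size of a difference followed the level of a gene across the array, so the members were read in 3 equal bins of all tested genes by mean level. In the dimmest bin, 7.11 to 7.77, the 8 members had a median of 0.09 and the 4123 genes of the bin -0.02. In the middle bin, 7.78 to 9.18, the 17 members had a median of 0.22 and all genes of the bin 0.10. In the brightest bin the 6 members had a median of 0.21 and all genes 0.19. At a limma unadjusted p under 0.05, 0 of 8 members and 0.970% of genes were higher in the dimmest bin. In the middle bin 9 of 17 members and 17.3% of genes were, and in the brightest 4 of 6 members and 34.0% of genes. After quantile normalization the medians of the members were 0.07, 0.10 and 0.04 from the dimmest to the brightest bin, against -0.02, 0.006 and 0.02 for all genes. These bins hold under 20 members each, and the medians are descriptions with no test.

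**Figure D3:**
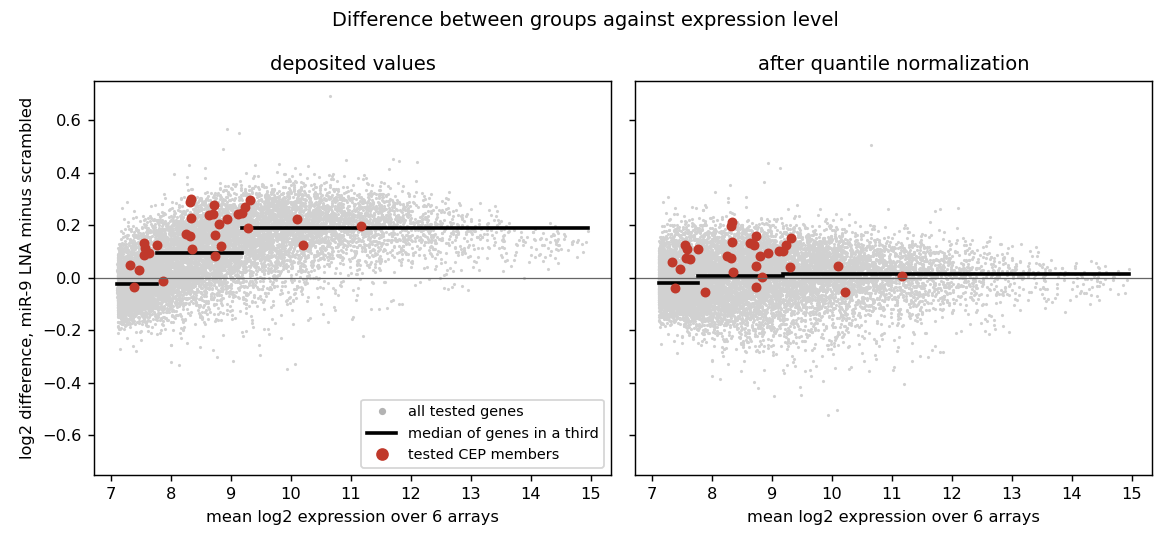
Log2 difference, miR-9 LNA minus scrambled LNA (y axis), against mean log2 expression over the 6 arrays (x axis) for the 12367 tested genes (grey), with the median of genes in each of 3 equal bins of level (black lines) and the 31 tested CEP members (red), in deposited values (left) and after quantile normalization (right). The black lines climb from -0.02 to 0.19 on the left and stay between -0.02 and 0.02 on the right, and most red points lie above them.

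Because the brightest probe set was taken and differences grew with level, the other probe sets of the same genes were read too. They hybridize to other stretches of the same transcripts, and some to other isoforms. Beside the 31 brightest, 38 further probe sets of the members passed the filter. Their median difference was 0.06, with 28 of 38 above 0, beside a median of 0.06 and 66.9% above 0 for all 27307 tested probe sets. At an unadjusted p under 0.05 limma gave 8 of 38, all higher, beside 3755 higher among the 27307. After quantile normalization 25 of 38 lay above 0, beside 51.5% of all tested probe sets. Of the 38, 4 then had an unadjusted p under 0.05 and were higher, beside 650 among the 27307. For 14 of the 22 members with over 1 tested probe set, all of them lay above 0. For 8 members the tested probe sets had both signs, and for 0 members did opposite probe sets each reach an unadjusted p under 0.05.

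CEP152 and CEP57 were read by several probe sets of the same direction. The 4 tested probe sets of CEP152 differed by 0.30, 0.05, 0.18 and 0.18, and 3 of them had limma unadjusted p-values of 0.00127, 0.0134 and 0.0209 (adjusted p = 0.296 to 0.303). The 5 tested probe sets of CEP57 differed by 0.05 to 0.31. The highest positive difference among tested CEP probe sets was 0.33 ± 0.08, at 235919_at of CEP78 (limma unadjusted p = 0.00425, adjusted p = 0.296), where the brightest probe set of CEP78 gave 0.19 ± 0.10. CEP350, CEP295, CEP290, CEP68 and CEP43 were among the 8 members with tested probe sets of both signs. Of these, CEP68 and CEP43 had a limma unadjusted p under 0.05 at the brightest probe set. The other tested probe sets differed by -0.02, 0.02 and 0.12 for CEP68 and by 0.13, 0.05 and -0.006 for CEP43. At 213165_at CEP350 differed by 0.30 ± 0.13 and at 213956_at by -0.41 ± 0.31, where scrambled replicate 2 read 9.81 and the other arrays 8.49 to 9.01. At 1569302_at CEP295 differed by -0.20 ± 0.27, with scrambled replicate 2 again highest, at 8.88, and scrambled replicate 1 lowest, at 7.75.

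**Figure D4:**
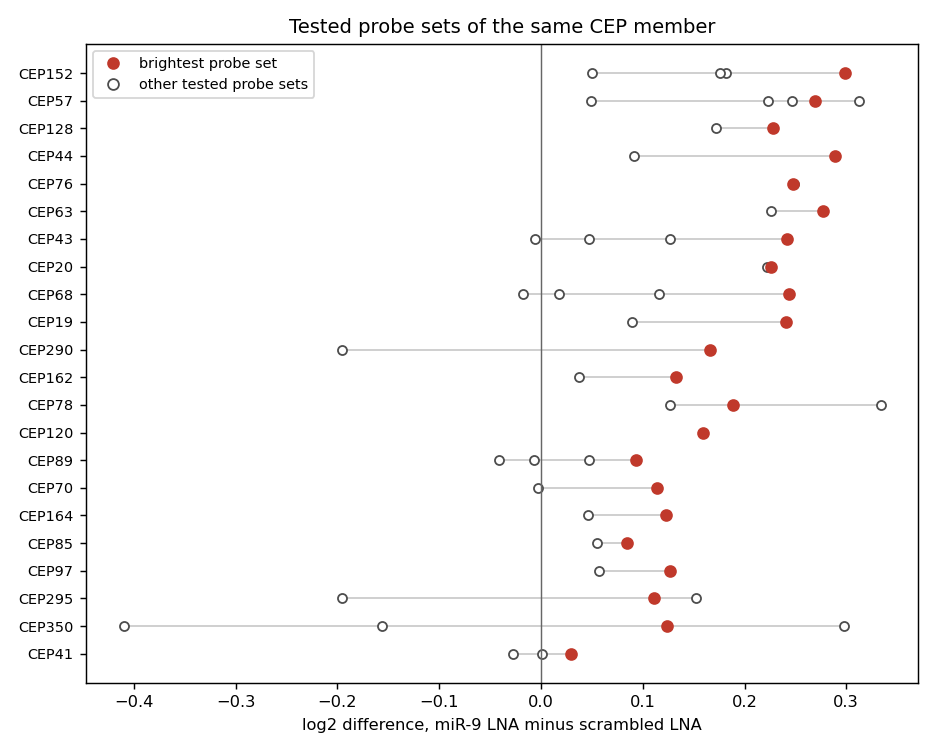
Log2 difference, miR-9 LNA minus scrambled LNA (x axis), of every tested probe set of the 22 CEP members that have over 1; red points are the brightest probe set of a gene and open points the others, joined by a grey line. The points of CEP152, CEP57, CEP76 and CEP63 stay right of 0, while those of CEP350 reach from -0.41 to 0.30.

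Several centrosome genes are transcribed in step with the cell cycle, and promoters of late cell cycle genes often carry TTTGAA, known as the cell cycle genes homology region, with CCAAT boxes or E2F sites nearby. The promoter windows of the 3 members with the smallest p are shown for this reason, from 250 bases before to 50 after the start site, from RefSeq (GRCh38.p14), 5′ to 3′, with TTTGAA or its reverse complement TTCAAA in capitals.
CEP152 promoter, chr15:48811020-48811319, strand -: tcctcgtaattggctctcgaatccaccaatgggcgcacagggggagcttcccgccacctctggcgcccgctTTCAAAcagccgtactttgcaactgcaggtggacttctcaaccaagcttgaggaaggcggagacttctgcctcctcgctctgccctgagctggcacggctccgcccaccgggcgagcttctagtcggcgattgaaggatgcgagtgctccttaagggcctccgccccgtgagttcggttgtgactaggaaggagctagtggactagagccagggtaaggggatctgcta
CEP135 promoter, chr4:55948695-55948994, strand +: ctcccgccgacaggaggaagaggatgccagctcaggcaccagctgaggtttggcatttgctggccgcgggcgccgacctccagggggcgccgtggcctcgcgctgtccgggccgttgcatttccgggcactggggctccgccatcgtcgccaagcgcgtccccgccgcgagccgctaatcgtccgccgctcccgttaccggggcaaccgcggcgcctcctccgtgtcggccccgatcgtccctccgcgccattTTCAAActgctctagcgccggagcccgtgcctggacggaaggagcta
CEP57 promoter, chr11:95789764-95790063, strand +: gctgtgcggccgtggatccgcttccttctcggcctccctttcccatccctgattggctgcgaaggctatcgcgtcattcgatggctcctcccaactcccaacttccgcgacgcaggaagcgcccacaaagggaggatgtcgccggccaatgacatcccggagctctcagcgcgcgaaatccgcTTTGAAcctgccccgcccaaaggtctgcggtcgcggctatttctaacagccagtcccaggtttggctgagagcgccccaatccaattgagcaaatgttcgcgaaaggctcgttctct
A second start site of CEP57 holds no match and is not shown.

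RefSeq windows were found for 30 of the 34 members, 38 windows in all. On either strand, TTTGAA occurred in 15 of these 38 windows (39.5%), against 10.7% of 14395 windows of tested genes and 15.2% of all 35116 windows. These 15 windows belong to 14 of the 30 genes. CCAAT occurred in 19 of the 38 CEP windows, against 34.6% of those of tested genes. Any of the E2F octamers TTTCGCGC, TTTCCCGC, TTTGGCGC and TTTGCCGC occurred in 7 CEP windows (18.4%), against 4.74%, on either strand. Matches to different motifs can share letters at their ends. The 13 tested members with TTTGAA had a median difference of 0.21 and the 15 without it 0.13, and after quantile normalization these medians were 0.08 and 0.10. The order of both sets thus turned with the normalization. With CCAAT the median was 0.13 (16 members) and without it 0.23 (12 members), and with an E2F octamer 0.24 (5 members) and without it 0.17 (23 members). After quantile normalization the medians were 0.07 with CCAAT and 0.10 without it, and 0.12 with an E2F octamer and 0.08 without it. A match is a run of letters in the window and was not tested as a binding site.

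Other genes of the centrosome give the setting. Of 36 listed genes of the centriole and pericentriolar material on the array, 32 were tested. Their median difference was 0.17 and 27 lay above 0, beside 0.08 and 70.0% for all tested genes. At an unadjusted p under 0.05 limma gave 10 higher and 0 lower, beside the same 17.4% and 0.598% of all tested genes, and after quantile normalization 0 higher and 1 lower. The 10 became 16 with the replicate block, 3 without miR-9 LNA replicate 1 and 5 without scrambled replicate 3. Over all 27307 probe sets, in either direction, 3926 became 6218, 2408 and 4383 in the same order. MIB1, a ubiquitin ligase of the satellites, differed by 0.29 ± 0.06, OFD1, a satellite and distal centriole protein, by 0.27 ± 0.07, and AKAP9, a large scaffold of the pericentriolar material, by 0.23 ± 0.06 (limma adjusted p = 0.296 for each).

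A list of the gamma-tubulin ring, which nucleates microtubules, and the augmin complex, which adds branches to them, also held TPX2 and CKAP5. Neither gene belongs to these complexes. The list had 18 tested genes with a median difference of 0.15 and 16 above 0. At an unadjusted p under 0.05 limma gave 6 of 18 higher, among them TPX2 and CKAP5, and 0 lower, beside 17.4% and 0.598% of tested genes. After quantile normalization it gave 1 and 0, beside 1.88% and 2.34%. The ring subunits TUBGCP3 and TUBGCP4 differed by 0.27 ± 0.07 and 0.28 ± 0.09, and the spindle assembly factor TPX2 by 0.24 ± 0.06 (limma adjusted p = 0.296 for each). Partners in appendages, the transition zone and early cilium formation had 18 tested genes. Their median was 0.05 and 12 lay above 0, beside 0.08 and 70.0% for all tested genes. For these partners limma gave 0 higher and 0 lower at an unadjusted p under 0.05, beside 17.4% and 0.598% of tested genes. Without miR-9 LNA replicate 3 it gave 3 higher. The transition zone gene TMEM67 differed by 0.17 ± 0.08, the vesicle GTPase RAB11A by 0.21 ± 0.11 and AHI1 by 0.15 ± 0.08. After quantile normalization the medians were 0.02 for the centriole list, 0.03 for the ring and augmin list and 0.003 for the partners. That of all tested genes was then -0.0008. Above 0 then lay 21 of 32, 10 of 18 and 10 of 18 genes, beside 49.6%. Whether these lists differ from the CEP genes or from each other was not tested.

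The members CEP126, CEP112 and CEP15 lay below the level filter of 7.11, with mean levels of 6.96, 6.95 and 6.58. CEP131, CEP250 and CEP41 lay just above it, at 7.33, 7.39 and 7.47. In a limma fit without the filter CEP112 differed by 0.08 ± 0.07, CEP15 by 0.04 ± 0.05 and CEP126, a microtubule protein of the cilium base, by -0.01 ± 0.07. The lowest values of each array lay near 6, and the files give no detection call, so it is not known whether these 3 mRNAs were detected.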

How the data were processed

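Total RNA of 6 L428 samples was hybridized to arrays with 54675 probe sets. The deposited values are log2 expression per probe set, for which the submitters' processing notes name affy and RMA. Versions, options and any added offset are not given in the sources used here, and the values carry no genome build. RMA corrects background, normalizes arrays together and summarises probes, and the deposited arrays still differed at their upper percentiles.

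Controls (62 probe sets) were removed. The 27307 probe sets with a mean at or above the median of the rest (7.11) were tested with limma 3.58.1 in R 4.3.3 (lmFit, eBayes, two-sided, Benjamini-Hochberg over all tested probe sets, threshold 0.05). Genes were named from the platform annotation, where 41091 probe sets had 1 symbol, 1801 several and 11721 none. By Entrez ID, 34 of 34 members were found in the GRCh38.p14 gene table, under the same symbols.

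The members and lists were chosen with earlier results of these data known. Every member is named. Values on each array are given for the 10 tested members of smallest p and the 3 of most negative difference, and for CEP55, which was chosen after its values were seen. Of each other list the 3 genes of smallest p are named. CEP20 and CEP43, which were also listed with the centriole genes, were counted as members only. Single values from 3 against 3 arrays could reach no exact permutation p below 0.1.

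The labels number the replicates without saying what a number stands for. Across probe sets, deviations from the group means correlated at r = 0.231, 0.193 and 0.634 for arrays of the same number. Other pairs of arrays gave -0.429 to 0.168. Deviations cancel within a group, so these values depend on each other, and only replicate 3 stood clear of the other pairs. Whether the numbers pair the arrays is therefore not settled. They were used as pairs in the pair counts and the replicate block, and the main fit had no block. Alternatives covered the filter, normalization, variance model, array weights, replicate block, probe set rule and each array left out. The scripts were tested on simulated data. Plots used Python 3.11.15 and matplotlib 3.10.9.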

Additional observations from a re-analysis of the deposited data

How the results depend on the processing

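In all 15 alternatives run on them, the 10 members of smallest p kept a positive difference and no probe set on the array passed an adjusted p under 0.05 by limma. The 10 were picked from these same arrays, so a kept sign was likely in advance. Changes of the filter, the variance model and the replicate block leave a difference as it is and could not turn its sign. Members near 0 changed sign under some alternatives: CEP250 (from -0.12 to 0.07), CEP170B (from -0.06 to 0.02) and CEP41 (from -0.01 to 0.10).

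Counts and medians of the tested CEP members moved most with the normalization. Members at a limma unadjusted p under 0.05 numbered 13 in the deposited values and 3 after quantile or cyclic loess normalization. They were 6 with the replicate block on quantile normalized values. Over all 27307 probe sets, in either direction, the count went from 3926 to 1243 after quantile and 1348 after cyclic loess normalization. With the block on quantile normalized values it was 2910. Members at that p were 8 with the brightest probe set whose name does not end in _s_at or _x_at, for which 24 members could be tested. The share of all genes under that rule was not computed. The median difference, 0.17, was 0.084 after quantile normalization, with or without the replicate block, and 0.078 after cyclic loess. It was 0.22 with a filter at the 75th percentile, and 0.085 with the mean over all probe sets of a gene. Members whose groups did not overlap, 16, were 9 after quantile normalization, with or without the block, and 10 after cyclic loess. The share of tested genes without overlap and higher was 22.0% as deposited and 5.40% after quantile normalization. For cyclic loess that share was not computed. With the replicate block on deposited values 14 members stood at an unadjusted p under 0.05, and 12 of them were among the 13. It moved the count over all probe sets from 3926 to 6218 and changed no call at an adjusted p. With quantile normalization of the 5 arrays other than scrambled replicate 1, chosen after seeing the data, the count was 3 and the median 0.098. The matching values over all genes were not computed.

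Leaving out each array in turn gave 8 (without miR-9 LNA replicate 1) to 14 members at a limma unadjusted p under 0.05 and higher, 0 lower in each. Over all 27307 probe sets, in either direction, the count ran from 2408 to 4383. Between 28 and 30 members lay above 0, and medians ran from 0.15 to 0.21. Members whose groups did not overlap were 16 to 23 higher and 0 to 1 lower, the 1 lower without scrambled replicate 2. Removing an array can only add genes without overlap. Without scrambled replicate 1 the shares of tested genes were 26.7% higher and 6.36% lower, against 22.0% and 3.83% with all arrays. These shares were not computed for the other arrays left out. Genes of the centriole and pericentriolar material at an unadjusted p under 0.05 and higher, 10 with all arrays, were 3 without miR-9 LNA replicate 1, 5 without scrambled replicate 3 and 16 with the replicate block. Over all 27307 probe sets, in either direction, 3926 became 2408, 4383 and 6218 in the same order. The number of arrays limits the precision.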

Other observations

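Probe sets that name CEP170 together with its pseudogene CEP170P1 are not members, since their signal cannot be divided between both. CEP170 is a protein of the subdistal appendages. At 207719_x_at the CEP170 and CEP170P1 signal differed by 0.14 ± 0.09 (limma adjusted p = 0.498), at 1552717_s_at by -0.02 ± 0.10 and at 212746_s_at by -0.008 ± 0.15, where the scrambled arrays had an SD of 0.32 and the miR-9 LNA arrays an SD of 0.08 (n = 3 each).

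CEP57L1, a relative of CEP57, lay below the level filter at all 4 of its probe sets. The highest of these, 243118_at, had means of 7.18 ± 0.12 under the inhibitor and 7.02 ± 0.05 in scrambled controls (mean ± SD, n = 3 arrays each), a difference of 0.16 ± 0.07 (limma adjusted p = 0.460 in the fit without a filter).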
